A study of Danio rerio with 9 samples.

Results

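The 6 libraries of lesioned zebrafish Müller glia in this series, of 9 libraries in all, were chosen by their measured level of 1 circadian clock gene, per1b (ENSDARG00000012499), into a low and a high state, and the genes that part the same way at both times after the lesion are described here. The measure was CPM, the count of per1b as a share of the total of its library, scaled as usual to a common library size. Libraries under 500 CPM are called low per1b libraries and those at 500 CPM or more high per1b libraries. Replicates 1 and 3 of 8 hours post lesion (hpl) stood at 179 and 193 CPM and replicate 2 of 16 hpl at 364 CPM, which makes 3 low libraries. Replicate 2 of 8 hpl stood at 1344 CPM and replicates 1 and 3 of 16 hpl at 1247 and 1589 CPM, which makes 3 high libraries. No library lay near the limit, the closest being 364 CPM below it and 1247 CPM above it. The labels give no such grouping, so each value that sets low against high libraries is a description without a test.

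In zebrafish, Müller glia are the radial glia from which lost retinal neurons are replaced. Neural retinas of fish of 8 to 11 months were dissociated and the glia sorted by the green fluorescent protein of Tg(gfap:EGFP)mi2002, which the promoter of the glial gene gfap drives. All 9 libraries carry this transgene. The 3 libraries of 0 hpl came from unlesioned control fish, and the 3 of 8 hpl and 3 of 16 hpl from free-swimming fish taken 8 or 16 hours after 30 minutes of light of over 120000 lux. The labels do not say how many fish went into a library, at which hour of day fish were taken, or whether libraries came from separate animals, so p-values measure only the spread between these samples.

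The circadian clock is a loop in which Bmal (Arntl), Clock and Npas2 proteins switch on genes through E-box sites. Among those genes are the per genes, bhlhe40 and bhlhe41, and ciart, whose proteins shut the activators off again. Rev-erb (Nr1d) and Ror nuclear receptors compete at the promoters of the bmal genes, Rev-erb as repressor and Ror as activator. The PAR bZIP factors Dbp, Tef and Hlf compete in the same way with Nfil3 at D-box sites. In zebrafish most tissues hold such a clock and respond to light directly, and light itself switches on per2 and several cry genes.

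The low libraries stood apart from the rest in more than per1b. On the leading principal component of all tested genes, which held 37.9% of the variance, their scores were 44.9, 49.0 and 67.0, while those of the remaining 6 ran from −34.7 to −14.2. Total expected counts ran from 11714633 (16 hpl replicate 3, a high library) to 26608088 (8 hpl replicate 1, a low library). RNA of other retinal cells was present in every library. The summed level of 18 rod marker genes ran from 49510 to 112900 CPM in the low and from 76770 to 106000 CPM in the high libraries, beside 2566 to 2850 and 2186 to 2469 CPM for 13 Müller glia markers. In such bulk samples, fewer cells of a type and less RNA per cell cannot be told apart. Replicate 2 of 16 hpl is the only low library of its time and stood apart from all others in several markers. It had the highest sum of 13 bipolar cell markers, 8369 CPM against 3510 to 4241 CPM in the other lesioned libraries. The gene cabp5a alone held 6036 CPM of that sum, against 1264 to 2160 CPM in those libraries. The median low minus high log2 difference of the 13 markers was −0.28. Replicate 2 of 16 hpl also had the lowest sum of rod markers. It held 294 CPM of the matrix protease gene mmp9 against 2.17 to 18.7 CPM in the other lesioned libraries. Differences at 8 hpl do not use this library, and mean differences and those at 16 hpl do.

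Levels below are CPM scaled with TMM factors (trimmed mean of M-values). A difference is low minus high on the log2(CPM + 1) scale, taken within 8 hpl and within 16 hpl and averaged, and it understates differences of genes near 0. In each series of 3 values, the low libraries stand in the order 8 hpl replicate 1, 8 hpl replicate 3 and 16 hpl replicate 2, and the high libraries in the order 8 hpl replicate 2, 16 hpl replicate 1 and 16 hpl replicate 3. A gene was said to follow the split where low and high libraries did not overlap and differed by at least 2-fold, in 1 direction, at both times.

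Of 19875 tested genes, 345 followed the split with higher levels in the low libraries (1.74%) and 549 with higher levels in the high libraries (2.76%), together 894 (4.5%). The median difference was 1.4 in the first set and −1.63 in the second, against 0.04 over all tested genes. A 4-fold mean difference was reached by 44 genes of the first set and 153 of the second, and an 8-fold one by 6 and 36. Libraries of the same time and state lay close together, with a median gap on the log2 scale between the low libraries of 8 hpl of 0.13 in the first set and 0.16 in the second. The gap between the high libraries of 16 hpl was 0.29 and 0.25. Over all tested genes the gaps were similar, 0.16 for the 8 hpl pair and 0.28 for the 16 hpl pair. Without 16 hpl replicate 2, the 2-fold minimum applied at 8 hpl alone, and 984 and 933 genes qualified. Without 8 hpl replicate 2, it applied at 16 hpl alone, and 1085 and 1159 qualified. In both cases the remaining low and high libraries of both times still had to stand apart. Values at the edge were 1.00 for utp11l, the smallest difference within a time among the genes that qualified, and 0.9996 for cdh16 among those that did not.

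The 2 times were not alike in how many genes parted. At 8 hpl alone, 1135 genes were at least 2-fold higher in the low libraries (5.71%) and 1099 in the high library (5.53%). At 16 hpl the numbers were 1835 (9.23%) and 1510 (7.6%). Both times shared 375 genes higher in low libraries, 33.0% of the 8 hpl list and 20.4% of the 16 hpl list. They shared 573 genes higher in high libraries, 52.1% and 37.9% of the lists. Only 18 genes in each direction were 2-fold apart the opposite way at the other time. Across tested genes the differences at 8 hpl and at 16 hpl had a Pearson r of 0.535, where the points share libraries and genes are not independent replicates.

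**Figure D1:**
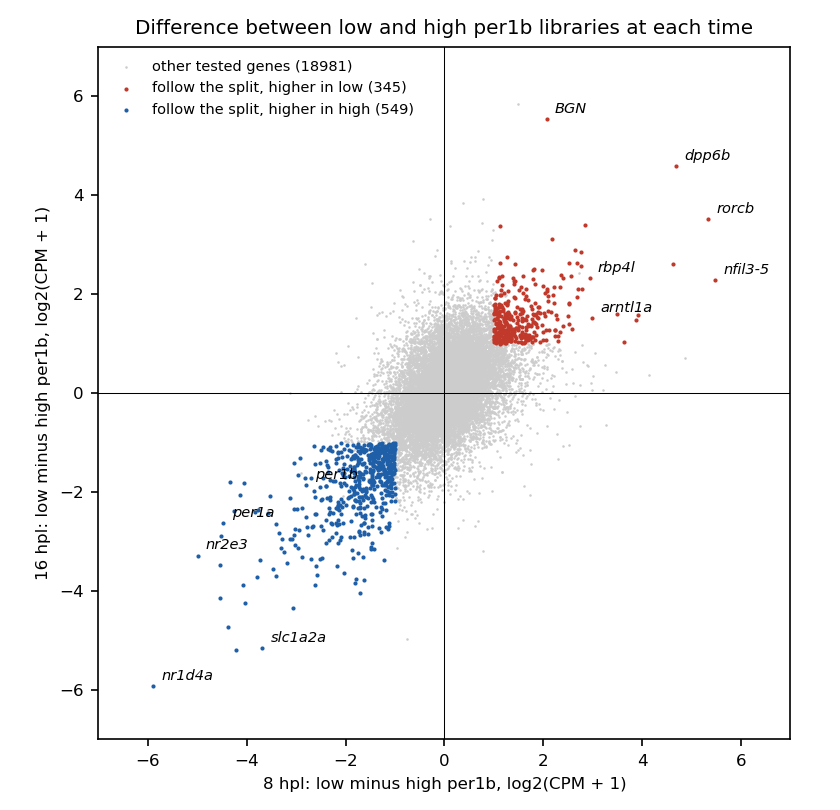
Difference between low and high per1b libraries at 8 hpl (x axis) and at 16 hpl (y axis), both low minus high in log2(CPM + 1), with 1 point per tested gene. Red points are the 345 genes that follow the split with higher levels in low libraries, blue points the 549 higher in high libraries, and grey points all others. The straight edges of both coloured sets are the 2-fold minimum.

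Clock genes lay at both ends of this distribution. Most of the listed activator genes lay toward the low libraries and most of the listed per and bHLH repressor genes toward the high ones. The repressor genes nfil3 and nfil3-5 were higher in low libraries. No cryptochrome gene followed the split, which is near the background for a list of 7 tested genes. Of 11 tested genes of clock activators, 6 followed the split with higher levels in low libraries and 1 with higher levels in high libraries, beside 1.74% and 2.76% of tested genes, and the median difference was 1.70. The activator gene arntl1a (ENSDARG00000006791) stood at 123, 125 and 42.8 CPM in the low and at 14.7, 15.8 and 13.0 CPM in the high libraries, a difference of 2.99 at 8 hpl and 1.51 at 16 hpl. Its copy arntl1b stood at 109.7, 108 and 43.8 against 18.3, 12.1 and 16.5 CPM. npas2, which encodes a partner of Bmal, stood at 84.4, 70.6 and 23.6 against 14.4, 7.79 and 11.4 CPM. In all 3 genes every low library was above every high library, and the 16 hpl low library lay between the low pair of 8 hpl and the high libraries.

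Among the Ror receptor genes, rorcb (ENSDARG00000017780) differed most, with 255, 202 and 21.9 CPM in the low and 4.66, 1.34 and 0.721 CPM in the high libraries. rorca stood at 437, 398 and 46.9 against 27.3, 17.3 and 15.1 CPM and roraa at 73.9, 71.0 and 59.7 against 17.7, 21.9 and 23.0 CPM. rorab reached 1.62 at 8 hpl and 0.87 at 16 hpl and so missed the 2-fold minimum at the later time. rorb differed the other way, by −0.68, also short of it. The exception among the activators was bmal2 (ENSDARG00000041381), a second kind of Bmal gene, which stood at 1.97, 3.09 and 1.23 CPM in the low and 20.1, 21.0 and 27.6 CPM in the high libraries. clocka and clockb did not follow the split. For clocka the low libraries lay above the high library at 8 hpl (0.26) and the low library below the high ones at 16 hpl (−1.42).

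The per and bHLH repressor genes were mostly on the opposite side. Of 8 tested per and bHLH repressor genes, none was higher in the low libraries and 6 were higher in the high libraries, against a background of 1.74% and 2.76%, with a median of −2.30; 1 of the 6 is per1b itself, which the rule fixed. per1a (ENSDARG00000056885) stood at 24.2, 22.5 and 95.6 CPM in the low and 538, 533 and 665 CPM in the high libraries. bhlhe41 (ENSDARG00000041691) stood at 85.7, 97.2 and 285 against 2125, 2264 and 2016 CPM, and its relative bhlhe40 at 739, 780.5 and 938 against 4208, 4139 and 4132 CPM. The high libraries of bhlhe40 come from both times and lay between 4132 and 4208 CPM.

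The ciart genes, whose proteins bind Bmal and silence it, gave differences of −3.07 (ciarta) and −2.31 (ciartb). ciarta stood at 18.5, 16.7 and 104 CPM in the low and 376, 397 and 332 CPM in the high libraries. The remaining per genes went other ways. The light-induced gene per2 was higher in low libraries at 8 hpl, by 1.55, and at 16 hpl, by 1.37, but it was also at least 2-fold lower at 16 than at 8 hpl within both states. Its levels were 806, 831 and 244 CPM in the low and 278, 81.7 and 108 CPM in the high libraries, so the groups overlapped. per3 gave a difference of −1.04 at 8 hpl and of −0.13 at 16 hpl.

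None of the 7 tested cryptochrome and photolyase genes, which encode clock repressors and light-driven repair enzymes, followed the split. With 4.5% of tested genes following in either direction, 0 of 7 is near the background. The median difference of the 7 genes was −0.09. cry4 came nearest, with 78.9, 82.5 and 26.3 CPM in the low and 21.1, 13.2 and 19.9 CPM in the high libraries and differences of 1.89 and 0.67. cry5, which encodes a photolyase-like protein, was at least 2-fold lower at 16 than at 8 hpl in both states. cry1a, cry2b and cry-dash were higher in the low libraries at 8 hpl and lower at 16 hpl, by less than 2-fold in all cases but cry2b at 16 hpl (−1.22). cry1b and cry2a reached a mean difference of −0.34 and 0.75. Reads of related copies such as cry2a and cry2b, the nfil3 genes or lonrf1 and lonrf1l may be split between them, and the copies were not compared by sequence.

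Receptors and bZIP factors of the second loop held the largest difference in size among the 894 genes that followed the split. Of 14 tested Rev-erb and PAR bZIP genes, 5 were higher in high and 2 in low libraries, beside 2.76% and 1.74% of tested genes. Their median difference was −1.10. nr1d4a (ENSDARG00000031161), a Rev-erb family gene of fish, stood at 3.22, 2.33 and 3.65 CPM in the low and 221, 261 and 302 CPM in the high libraries, a difference of −5.89 at 8 hpl and −5.92 at 16 hpl. nr1d4b (ENSDARG00000059370) stood at 10.2, 9.71 and 9.47 against 227, 292 and 260.3 CPM. In both genes the 16 hpl low library lay close to the low pair of 8 hpl, whereas in per1a, bhlhe41 and ciarta it lay between that pair and the high libraries. nr1d1 reached a 2-fold difference at 8 hpl only, with 86.4, 86.4 and 390.4 CPM in the low libraries and 413, 496 and 489.5 CPM in the high ones. nr1d2b was nearly flat, with a difference of 0.09, and nr1d2a was higher in low libraries, by 0.80 at 8 hpl and 1.71 at 16 hpl.

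The PAR bZIP genes dbpa and dbpb, whose products activate D-box genes, were higher in high libraries, with mean differences of −2.81 and −3.32. dbpb stood at 34.4, 34.9 and 161 CPM in the low and 676, 889 and 799 CPM in the high libraries. hlfa differed by −1.43, and hlfb and tefa by −1.14 and −1.10, the last 2 short of 2-fold at 1 of the times. The genes of the opposing D-box repressor were on the other side. nfil3-5 (ENSDARG00000094965) stood at 1613, 1649 and 150.2 CPM in the low and 35.7, 33.0 and 27.5 CPM in the high libraries. nfil3 stood at 449, 462 and 39.3 against 35.9, 17.7 and 19.5 CPM. nfil3-2 was 4.15 apart at 8 hpl but 0.37 at 16 hpl. nfil3-6 differed by 0.34 and 1.18, nfil3-4 was below the filter on low counts, and tefb was not analysed here.

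**Figure D2:**
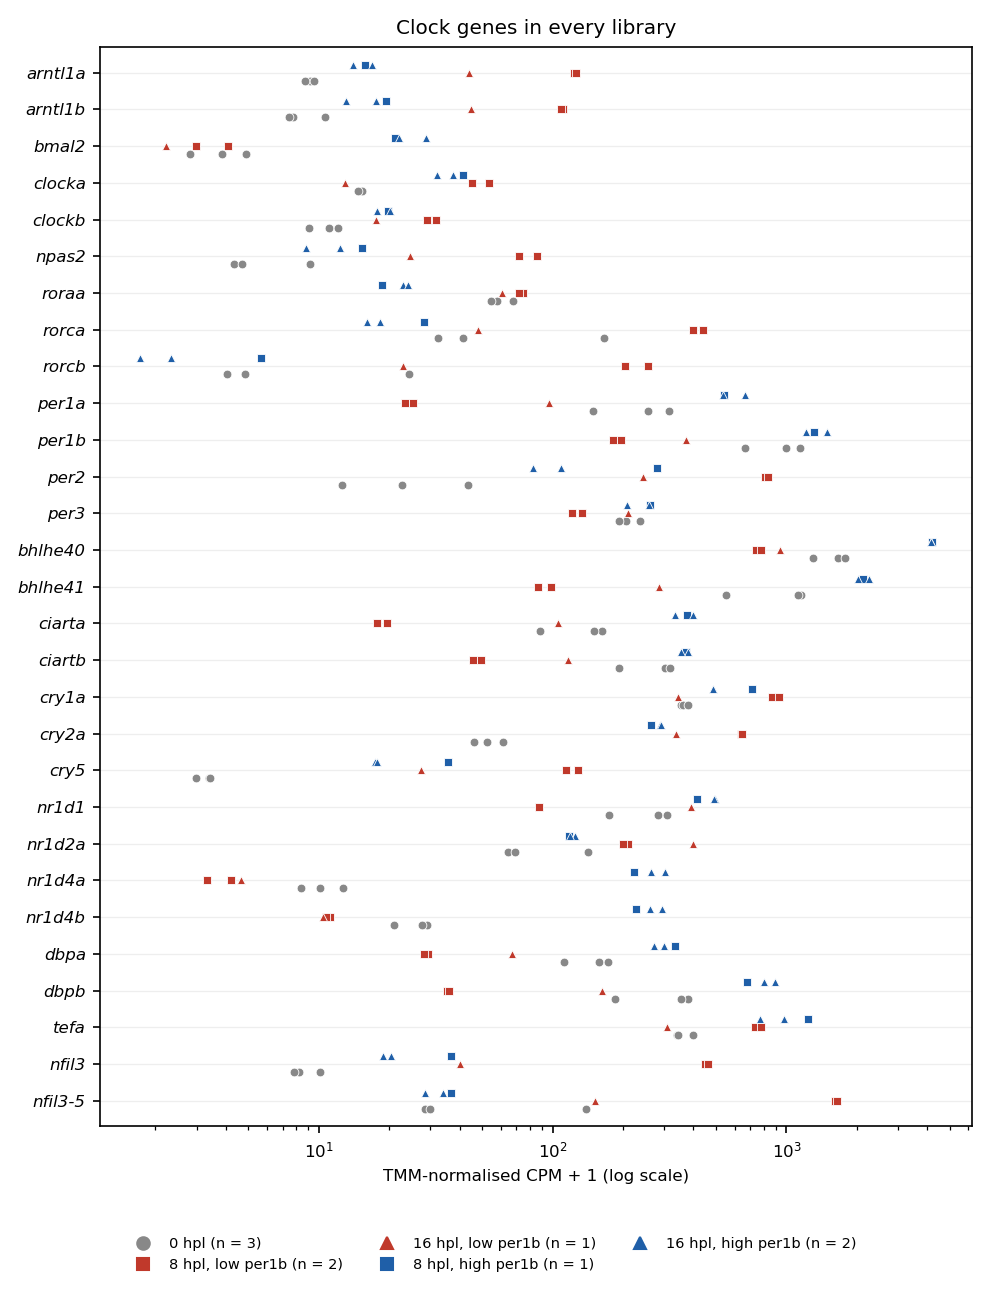
Clock genes in every library, as TMM-normalised CPM + 1 on a log axis, with 1 row per gene. Grey circles are the 3 libraries of 0 hpl, squares 8 hpl and triangles 16 hpl, and red marks low and blue marks high per1b libraries; in rows such as arntl1a, bhlhe41 and nr1d4a all red marks lie to one side of all blue marks, and in clocka, per3 and cry1a they do not.

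Kinases and ubiquitin ligases of the clock mark repressor proteins for decay. None of 7 tested genes of this group followed the split, which is near the background of 4.5% in either direction. The median difference of the 7 was −0.075. The casein kinase genes csnk1da and csnk1db were lower in low libraries at 8 hpl, with differences of −1.10 and −1.30, and differed by −0.44 and −0.005 at 16 hpl. Of 21 tested metabolic genes known as circadian outputs, 1 was higher in low and 1 in high libraries, near the background of 1.74% and 2.76%. The first was wee1, which encodes a kinase that holds cells before mitosis and is a known clock target, with 101, 105 and 46.2 CPM in the low and 28.7, 16.4 and 16.7 CPM in the high libraries. The second was the lipid receptor gene pparab, at low levels of 4.39, 3.81 and 1.61 against 10.4, 5.23 and 11.8 CPM.

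The unlesioned libraries, which the rule did not use, were set beside the 2 states. The mean of 0 hpl lay nearer the high libraries in 267 of the 345 genes higher in low libraries (77.4%), in 426 of the 549 genes higher in high libraries (77.6%) and in 57.5% of tested genes. Since the genes were chosen on the low and high values, that choice bears on these shares and nothing is read from them. bhlhe41, with 1154, 1116 and 550.0 CPM at 0 hpl, lay between both states. nr1d4a stood at 9.16, 11.7 and 7.38 CPM at 0 hpl, close to the low libraries, and bmal2 at 3.89, 2.86 and 1.82 CPM, also close to them. roraa, at 57.1, 67.0 and 53.7 CPM, was nearer the low libraries too.

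Replicate 3 of 0 hpl had the lowest per1b of its group, 664 CPM against 998 and 1137 CPM. By rank within 0 hpl it lay on the side of the low libraries in most clock genes that followed the split. It was the lowest of its group in all 12 of these genes that were higher in high libraries, per1b included, and the highest in 6 of the 8 that were higher in low libraries. In the other two, roraa and nfil3, it was the lowest. In replicates 1, 2 and 3 of 0 hpl, rorca was at 31.2, 40.5 and 165 CPM, rorcb at 3.84, 3.04 and 23.2 CPM and nfil3-5 at 27.5, 28.8 and 138 CPM. per1a stood at 256, 314 and 148 CPM, dbpb at 379.6, 355 and 184 CPM and ciarta at 161, 149 and 87.4 CPM. In the first 3 genes replicate 3 was the highest and in the last 3 the lowest of its group. Such ranks hold within 0 hpl only and do not give nearness to a state. arntl1a, at 8.19, 7.73 and 8.56 CPM, and arntl1b, at 6.76, 6.48 and 9.68 CPM, lay below every lesioned library in all replicates of 0 hpl. Over all genes that followed the split, replicate 3 was above both others in 174 of the 345, 50.4% against 37.5% of tested genes, and below both others in 300 of the 549, 54.6% against 35.7%. This library also had the largest sum of rod markers at 0 hpl, 136700 CPM against 81500 and 83610 CPM, and the part of that in these values was not tested.

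Rod genes parted in single members only. Of 18 tested rod markers, 1 was higher in low and 1 in high libraries, beside 1.74% and 2.76% of tested genes. Their median difference was −0.27. nr2e3 (ENSDARG00000045904), which encodes a receptor that keeps cone genes off in rods, stood at 120.3, 136 and 329.9 CPM in the low and 4104, 3341 and 3137 CPM in the high libraries. sagb, a rod arrestin gene, stood at 8971, 9223 and 5440.5 against 1535, 1085 and 1015 CPM. saga, the other rod arrestin gene, differed by −0.31 at 8 hpl and −0.83 at 16 hpl, and the opsin gene rho by −0.16 and −0.92. guca1a (ENSDARG00000010454), which encodes a calcium sensor of photoreceptor guanylate cyclase, stood at 655, 634 and 304 CPM in the low and 5363, 6824 and 5599 CPM in the high libraries. The summed level of rod markers did not part with these 3 genes. It was higher in the low pair of 8 hpl than in the high library of that time, at 112900 and 108700 against 106000 CPM. At 16 hpl it was lower in the low library, at 49510 against 76770 and 83470 CPM. The sum follows its most abundant genes most. In 8 hpl replicate 1, rho held 54808 CPM and gnat1 17369 CPM of the 112900 CPM. Whether the sum of the other rod markers parted was not tested.

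The sum of cone markers parted with the split only with the gene PDE6H in it. It ran over 21 genes from 3646 to 4573 CPM in the low and from 6662 to 8776 CPM in the high libraries. Of the 21, 1 followed the split, the cone channel gene cnga3a, beside 4.5% of tested genes. cnga3a stood at 5.99, 8.51 and 1.09 CPM in the low and 25.5, 30.4 and 36.7 CPM in the high libraries. PDE6H, a cone phosphodiesterase subunit gene, stood at 1015, 969 and 3436 against 4786, 6761 and 5597 CPM, and its difference at 16 hpl, −0.84, was under 2-fold. Without PDE6H the sum of the other 20 markers ran from 1138 to 3007 CPM in the low and from 1724 to 2015 CPM in the high libraries, so that the states overlapped. The cone arrestin gene arr3a differed the other way, with 1148, 1289 and 399 against 265, 229 and 196 CPM. The part of cone RNA in the values of photoreceptor genes was not tested.

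Genes of melatonin synthesis, which peaks at night in the photoreceptors and pineal gland of fish, included 2 of 5 higher in high libraries. Of all tested genes, 2.76% were higher in high and 1.74% in low libraries. aanat2, which encodes the acetyltransferase of that pathway, stood at 303, 301 and 119 CPM in the low and 668, 819 and 800.0 CPM in the high libraries. tph1a, for the first step from tryptophan to serotonin, stood at 29.8, 29.4 and 142 against 232, 360.4 and 349.9 CPM. aanat1, the form more typical of the retina, differed by −0.40 at 8 hpl and −0.45 at 16 hpl. Of 13 tested nonvisual opsin genes, which encode light sensors outside image vision, opn3 alone followed the split, with 50.3, 52.3 and 56.5 CPM in the low and 16.4, 8.70 and 11.7 CPM in the high libraries.

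**Figure D3:**
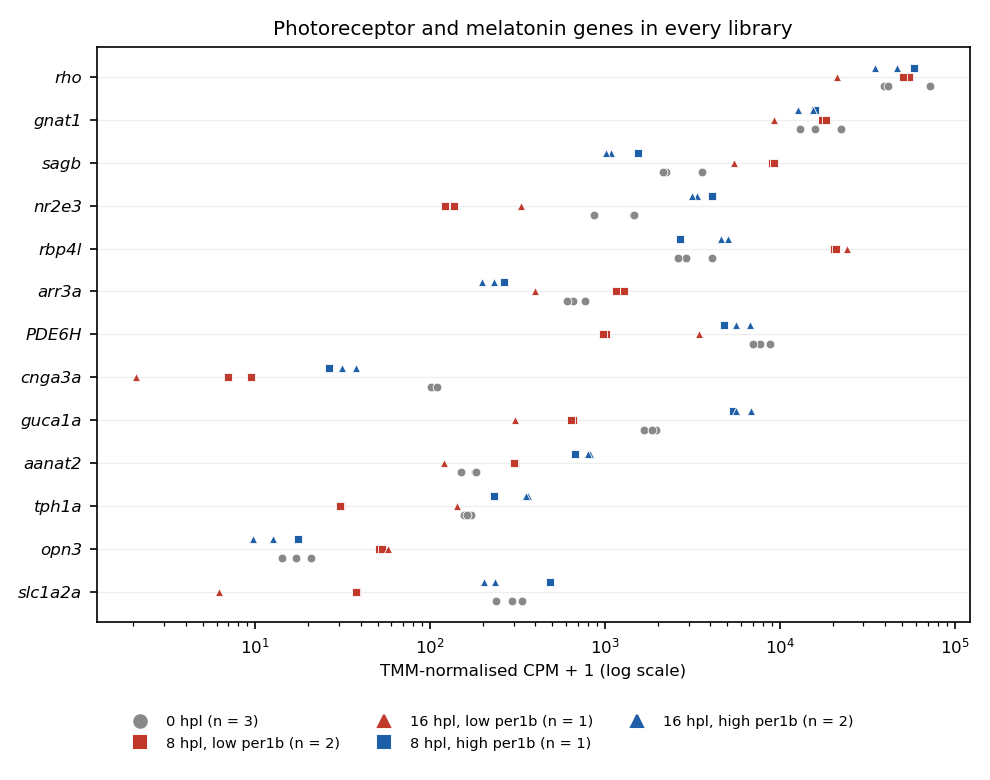
Photoreceptor, melatonin and transporter genes in every library, as TMM-normalised CPM + 1 on a log axis, with the marks of the clock gene plot. nr2e3, guca1a, aanat2 and slc1a2a have all red marks (low per1b libraries) left of all blue marks (high per1b libraries), sagb, rbp4l and opn3 have them to the right, and rho and gnat1 overlap.

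Large differences were also found outside the clock. Of the 894 genes that followed the split, the one furthest toward the low libraries was dpp6b (ENSDARG00000024744), which encodes an auxiliary subunit of Kv4 potassium channels, with 320.2, 343 and 392.3 CPM in the low and 11.9, 15.9 and 14.7 CPM in the high libraries. kcnip3b, for a calcium-binding partner of the same channels, stood at 30.3, 38.0 and 43.7 against 6.71, 4.07 and 4.32 CPM. rbp4l, of the retinol-binding protein family, stood at 20244, 20948 and 24181 against 2689, 5067 and 4592 CPM. In dpp6b, kcnip3b and rbp4l the 16 hpl low library was the highest of all 6. esrrd, a nuclear receptor gene of the estrogen-related group, stood at 575, 521 and 149.6 CPM in the low and 21.1, 19.8 and 28.2 CPM in the high libraries. The helicase gene rad54l2 stood at 536, 525 and 217 against 77.2, 25.5 and 33.9 CPM, and stxbp5l, for a syntaxin-binding protein of vesicle release, at 59.1, 58.6 and 62.5 against 7.32, 3.94 and 6.25 CPM. These 3 genes reached similar levels in both low libraries of 8 hpl. The matrix proteoglycan gene BGN had a mean difference of 3.80 that rests mainly on 16 hpl replicate 2, with 5.83, 5.95 and 53.8 against 0.643, 0.389 and 0 CPM. The remaining large differences in this direction were those of ccdc136a (2.77), crtac1a (2.75), rag2 (2.57) and hspb11 (2.54).

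Toward the high libraries, slc1a2a (ENSDARG00000052138), which encodes a glutamate transporter, stood at 36.9, 36.5 and 5.16 CPM in the low and 483, 203 and 235 CPM in the high libraries. At 292, 335 and 238 CPM its 0 hpl libraries lay with the high ones. lrmp (ENSDARG00000045574), for a membrane protein of the endoplasmic reticulum, stood at 45.1, 38.2 and 12.03 against 787, 417 and 547 CPM. cyp11c1, whose enzyme makes cortisol in fish, stood at 7.35, 7.25 and 5.68 against 135, 121 and 133 CPM, and smu1b, for a splicing factor, at 4.05, 2.91 and 4.83 against 102, 107 and 98.5 CPM. All 4 were separated at both times by at least 12.8-fold on the CPM + 1 scale. SUSD3 (1 of 2), pacs2, myo16, tll1 and neo1b followed with mean differences from −4.01 to −3.52; tll1 encodes a tolloid-like matrix protease and neo1b a netrin receptor.

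Of 36 tested heat shock and chaperone genes, 5 were higher in low libraries (13.9%, beside 1.74% of tested genes) and none in high ones (beside 2.76%), and their median difference was 0.31. The summed level of the list ran from 9456 to 10290 CPM in the low and from 5599 to 7461 CPM in the high libraries. The 5 genes were hsp90aa1.1, hspb6, hspb11, hspe1 and dnajb9a. hspe1, for the partner of the mitochondrial chaperonin, stood at 207, 208 and 179 CPM in the low and 75.6, 82.2 and 61.6 CPM in the high libraries. hspb11, a small heat shock gene, stood at 23.9, 32.4 and 5.78 against 1.57, 1.12 and 1.36 CPM. Of 26 oxidative stress genes, 2 were higher in low libraries (7.69%, beside 1.74% of tested genes). These were gsto1, a glutathione transferase gene (1.43), and txn, a thioredoxin gene. txn stood at 11.2, 11.2 and 63.4 against 4.58, 5.41 and 4.96 CPM, and its mean difference rests mainly on 16 hpl replicate 2. The DNA glycosylase gene neil1 was the only one of 15 tested genes listed under nucleotide excision repair, although its enzyme acts in base excision, and it differed by 1.31. The chemokine gene ccl25b was the only one of 19 in the list of NF-kB and cytokine genes. neil1 and ccl25b were 6.67% and 5.26% of their lists, beside 1.74% of tested genes. Each share is a single gene, and nothing is read from it.

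Lists with no gene following the split were those of JAK-STAT3 signalling (21 tested), the complement pore (4), reprogramming (16), interferon-stimulated genes (19), cholesterol synthesis (22), apoptosis (28), immediate-early genes (29) and G1/S phase (29). With 4.5% of tested genes following in either direction, 0 in any single list of this size is near the background. The lists were put together here for having no such gene, and they were not compared with the background jointly. JAK-STAT3 genes that followed hours could not also follow the split, since the rules exclude each other. Of 27 G2/M genes, wee1 and CENPF (2 of 2) were higher in low libraries, beside 1.74% of tested genes. Of 15 glucocorticoid targets, only per1a and per1b followed, both of which are clock genes. The rule fixed per1b, and 2.76% of tested genes were higher in high libraries, as both were. Of 20 heme and light genes, crtac1a followed, with 334, 352 and 78.4 CPM in the low and 21.8, 24.2 and 26.7 CPM in the high libraries. Among markers of other cells, rgs5a of pericytes (1 of 6 endothelial and pericyte markers), pmelb of pigment epithelium (1 of 10) and, among Müller glia markers, sox9b at 1.55, 1.39 and 0.995 against 7.84, 2.81 and 5.04 CPM (1 of 13) followed. None of the markers of bipolar (13), amacrine (10), ganglion (8) or horizontal cells (7), microglia (10), neutrophils (7), oligodendrocytes (8) or erythrocytes (1) did. The sum of neutrophil markers ran from 21.8 to 320 CPM in the low and 16.7 to 36.9 CPM in the high libraries, the highest being 16 hpl replicate 2, where mmp9 is a member of that list. At 0 in all 9 libraries were 3 of 8 erythrocyte markers, 1 of 10 neutrophil markers and 1 of 9 oligodendrocyte markers.

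Transcript length moved with the split. The length implied by the deposited counts and FPKM had a median of 1.28 kb in the genes higher in low libraries, 1.95 kb in those higher in high libraries and 1.49 kb in tested genes. In the longest tertile of tested genes 265 were higher in high libraries (4.13%) and 73 in low ones (1.14%). In the shortest tertile 113 (1.76%) and 141 (2.2%) were. The median difference was −0.11 at 8 hpl and −0.16 at 16 hpl in the longest tertile, and 0.11 and 0.22 in the shortest. The part of length or of RNA quality in the split was not tested. Among clock genes that followed the split, the median length was 1.75 kb in the 8 higher in low and 2.53 kb in the 12 higher in high libraries.

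Hours post lesion, the grouping that the labels give, were then set against the split. By the same rule applied to 16 minus 8 hpl within the low and within the high libraries, 110 genes were higher at 16 hpl (0.553%) and 58 at 8 hpl (0.292%), together 168 (0.845%). Without 8 hpl replicate 2 these counts were 759 and 735, and without 16 hpl replicate 2 they were 222 and 265. A gene cannot meet both rules, since each asks that its own groups do not overlap. The edgeR quasi-likelihood test of 16 against 8 hpl with Benjamini-Hochberg adjustment over all tested genes called 12 genes higher at 16 hpl (0.0604%) and 8 higher at 8 hpl (0.0403%), together 20 (0.101%). Its fit had no term for the per1b state. Most low libraries were of 8 hpl and most high ones of 16 hpl, so the state was not balanced between the times and is part of the spread of the fit. The number of calls and the 894 genes of the split come from unlike rules and cannot be compared in size. Of the 20, 19 followed hours by the rule, which uses the same contrast and which leaves no such gene to follow the split. At an unadjusted p under 0.05 there were 2710 genes, and DESeq2 called 663. With the 6 lesioned libraries alone edgeR called 0 genes, with 1962 at an unadjusted p under 0.05. Without 8 hpl replicate 2 edgeR called 677 genes and without 16 hpl replicate 2 66, and without any 1 of the other 7 libraries it called 0, with 1609 to 3056 genes at an unadjusted p under 0.05.

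Genes of the injury response were among those that followed hours. stat3, which encodes the transcription factor of that response, stood at 65.0, 60.2 and 176 CPM in the low and 46.9, 143 and 172 CPM in the high libraries. Levels were higher at 16 than at 8 hpl in both states, with an edgeR log2 fold change of 1.51 ± 0.18 (SE; adjusted p = 0.0261), while low and high libraries of the same time differed by 0.41 and 0.17. The vault protein gene mvp stood at 105, 109.8 and 598 against 64.2, 334 and 414 CPM, with a log2 fold change of 2.27 ± 0.29 (edgeR adjusted p = 0.0263). stat1a also passed. Of 21 JAK-STAT3 genes, 6 followed hours upward (lepb, crlf1a, jak1, stat3, stat1a and irf9) and 1 downward (pim3), beside 0.553% and 0.292% of tested genes. The median 16 minus 8 hpl difference of the 21 was 1.00, against −0.01 over tested genes. lepb, a leptin gene, stood at 8.83, 10.3 and 30.6 CPM in the low and 19.9, 54.0 and 46.8 CPM in the high libraries and was lower in the low libraries at both times.

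Genes higher at 8 hpl than at 16 hpl included wdr76, lonrf1 and lonrf1l, the last 2 encoding RING finger proteins. lonrf1 stood at 353, 356 and 61.0 CPM in the low and 289.6, 94.8 and 108 CPM in the high libraries, with an edgeR log2 fold change of −1.92 ± 0.23 (adjusted p = 0.0261). wdr76 had a log2 fold change of −3.20 ± 0.44 (edgeR adjusted p = 0.0355), and at 8 hpl its low libraries stood at 77.5 and 87.3 CPM and its high library at 27.4 CPM. Some genes carried both patterns at once without meeting the rule for the split. lonrf1l stood at 1159.5 and 1149.5 CPM in the low and 497 CPM in the high library of 8 hpl, but between 175 and 187 CPM in all 3 libraries of 16 hpl. mmp9 followed hours with the low library of 16 hpl far above the high ones, at 294 against 18.0 and 18.7 CPM. gfap and rho met neither rule.

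**Figure D4:**
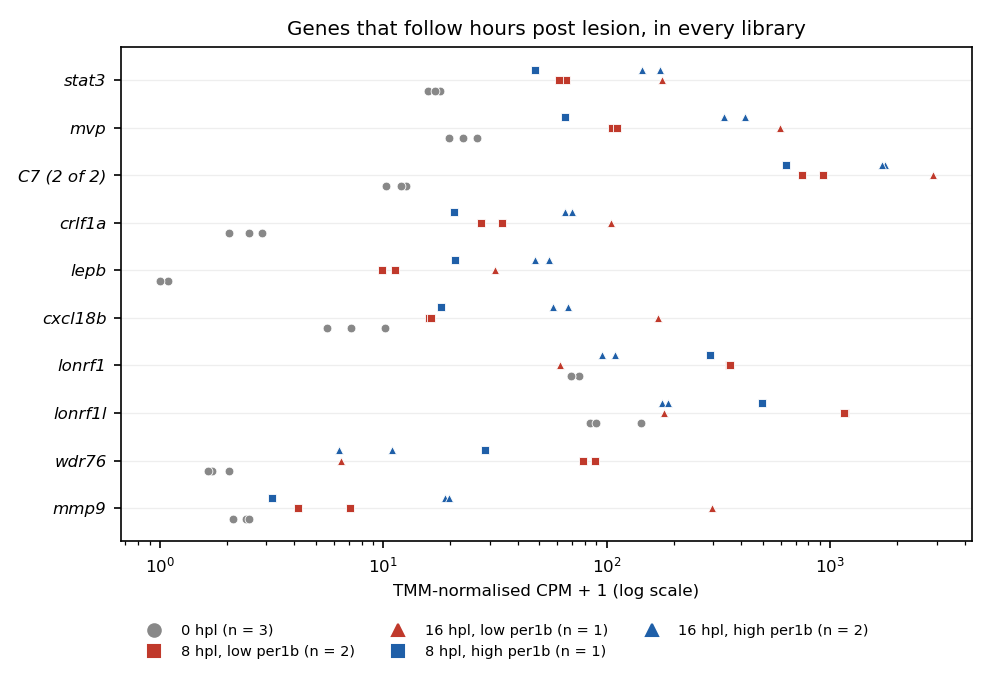
Genes that follow hours post lesion in every library, as TMM-normalised CPM + 1 on a log axis, with squares for 8 hpl, triangles for 16 hpl, grey circles for 0 hpl, and red for low and blue for high per1b libraries. In stat3, mvp and lonrf1 squares and triangles stand apart whatever their colour, and in mmp9 the low library of 16 hpl stands far to the right of all others.

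Single genes show the size of both differences side by side. nr1d4a, with a low minus high difference of −5.91, had a 16 minus 8 hpl difference of 0.33, and dpp6b, at 4.64, had one of 0.29. Other genes that followed the split also differed by hours. rorcb, at 4.42 between the states, had a 16 minus 8 hpl difference of −2.41, and nfil3-5, at 3.88, had one of −1.84. stat3, at 0.29 between the states, had one of 1.60. In several clock genes the difference between the states was larger at 8 than at 16 hpl. rorcb gave 5.33 at 8 hpl and 3.51 at 16 hpl, nfil3 3.63 and 1.04, and bhlhe41 −4.53 and −2.90. Over all genes that followed the split this was not general: the difference was larger at 8 hpl in 175 of the 345 genes and in 220 of the 549. Within the low state 16 hpl replicate 2 lay closer to the high libraries than the 8 hpl pair did in 155 of the 345 genes (44.9%) and 141 of the 549 (25.7%).

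**Figure D5:**
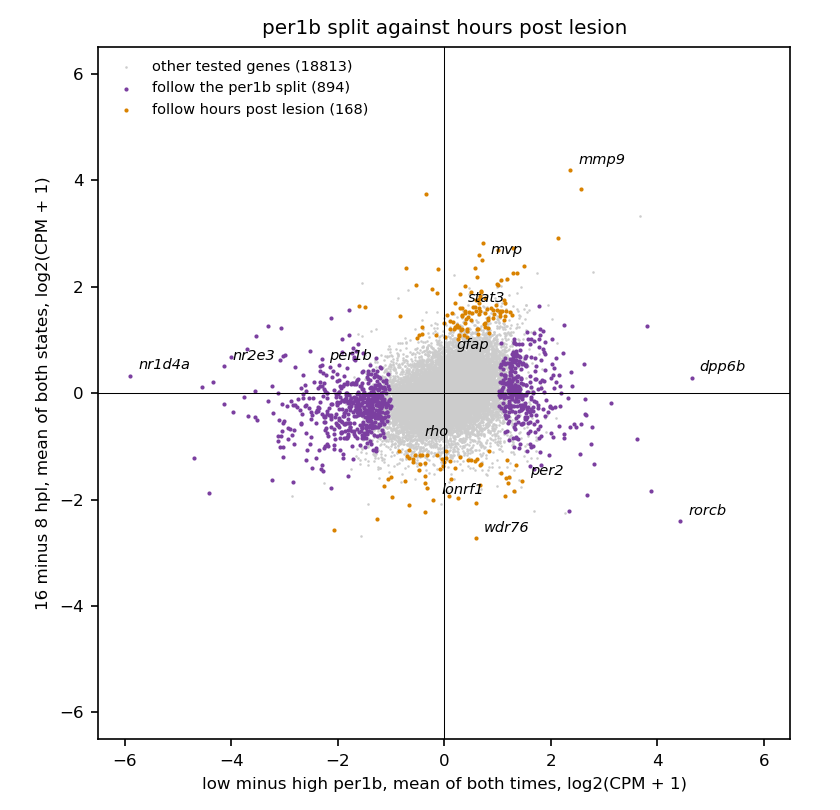
Low minus high per1b difference, the mean of both times (x axis), against 16 minus 8 hpl difference, the mean of both states (y axis), in log2(CPM + 1), with 1 point per tested gene. Purple points are the 894 genes that follow the split and orange points the 168 that follow hours. nr1d4a and dpp6b lie far out on the x axis near 0 on the y axis, and stat3 and mvp the reverse. rorcb lies away from 0 on both axes.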

How the data were processed

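The authors deposited a table of RSEM expected counts for 33737 Ensembl genes in 9 libraries, without normalization, and a table of FPKM that is called normalized only by its name. The submitters' processing notes name RSEM 1.2.22, Bowtie2 2.2.6, Trim Galore 0.2.7 and cutadapt 1.4.2, then limma 3.24.15 and edgeR 3.10.2, with build Zv9, in no stated role. Per the labels' protocols the libraries were stranded and single-end, each read in its own lane. Which annotation was counted the sources do not state. The deposited comparison table, with log2 fold changes by its header, was read for gene symbols only. It gave 12581 symbols, a list of gene names gave 9741, and 11415 genes had none.

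Expected counts were rounded and fitted with edgeR 4.0.16 in R 4.3.3 (filterByExpr by group, TMM factors of 0.873 to 1.07, robust quasi-likelihood, all 9 libraries, 6 residual degrees of freedom). This left 19875 genes, 15599 with a symbol. The only test was 16 against 8 hpl, two-sided, with Benjamini-Hochberg adjustment at 0.05, and DESeq2 1.42.0 was an alternative. SE were back-calculated from the log2 fold change and F. Low and high per1b libraries were compared as log2(TMM CPM + 1) within each time, with no test. The fit and the rule were tested on simulated data.

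The members, the 36 gene lists (23 of processes, 13 of markers) and the rules were chosen with earlier results of these data known. Genes were named by a rule: the 15 largest differences of each sign among genes that followed the split, with at least 5 CPM in the higher state and a symbol that is no clone name; all genes of the clock lists; up to 4 of each other list that followed the split; the 6 largest of each sign that followed hours; some injury genes; and 2 genes per marker list. Not all of these are printed. Chosen for the text after their values were seen were saga, aanat1, csnk1da, csnk1db, jak1, irf9, pim3, stat1a and hsp90aa1.1. The comparison by transcript length, from counts over FPKM with the TMM library size, was added after seeing the data. Promoter motifs were not analysed here. Libraries of a group differed by more than sampling noise, with a median chi-square per gene of 5.28 to 11.1 times that of Poisson counts in the 3 pairs compared, so none was counted as a duplicate.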

Additional observations from a re-analysis of the deposited data

Results flagged for a closer look

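In 14 of the 122 named genes that passed the filter on low counts, the low per1b libraries all lay above the high ones at 1 time and all below them at the other. The share of all tested genes that did so was not computed, and nothing is read from the count. These opposite differences between 8 and 16 hpl were not tested, and the 16 hpl value rests on 1 low library and the 8 hpl value on 1 high library. Each pair of values is low minus high on the log2(CPM + 1) scale, at 8 hpl first. Among clock genes, clocka gave 0.258 and −1.42, clockb 0.614 and −0.109, cry1a 0.325 and −0.497, cry2b 0.294 and −1.22, and cry-dash 0.296 and −0.795. Among genes that followed hours post lesion, ccdc80l1 gave 0.801 and −1.52 and lonrf1 0.289 and −0.719, with the low libraries higher at 8 hpl. cyp27c1 gave −0.412 and 2.43 and cxcl18b −0.159 and 1.45, with the low library higher at 16 hpl. Among marker genes, the rod transducin gene gnat1 gave 0.171 and −0.591. gfap of Müller glia gave −0.389 and 0.534, gnao1b of bipolar cells −0.118 and 0.318, slc6a9 of amacrine cells −0.273 and 0.221, and plp1b of oligodendrocytes −0.797 and 0.849. For slc6a9 the 2 low libraries of 8 hpl were themselves 0.473 apart, more than its difference at that time. For cyp27c1 the same libraries were 0.413 apart, about as much as its difference. For clockb the high libraries of 16 hpl were 0.183 apart, more than its difference at 16 hpl.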

How the results depend on the processing

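The counts of genes that follow the split or hours depend on the chosen minimum and pseudocount. Higher in low libraries were 345 genes, and 596 with a pseudocount of 0.25 CPM, 154 with 4, 1250 with a 1.5-fold minimum and 23 with 4-fold. Higher in high libraries were 549 genes, and 1282 with 1.5-fold and 94 with 4-fold. Higher at 16 hpl were 110 genes, and 217, 45, 416 and 7 under the same 4 settings. Higher at 8 hpl were 58 genes, and 173, 20, 359 and 2. CPM of the plain column total (283 and 620 for the split), the deposited FPKM (341 and 507) and no filter (345 and 549) stayed within 1.5 times, and 283 and 459 of the FPKM genes were shared with the main lists. Leaving out 1 library gave 302 to 1085 and 521 to 1159 genes for the split, and 117 to 759 and 63 to 735 for hours, the highest values without 8 hpl replicate 2. No difference of a named gene that followed the split changed sign under any alternative run, and the smallest was 0.883 in size. Of 660 such values, 201 were counted as moved and 459 as the same. These genes were chosen as having states that do not overlap. Leaving out a library or changing the pseudocount could therefore not reverse a sign, and nothing is read from its absence.

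For 16 against 8 hpl, edgeR called 12 higher and 8 lower genes, 25 and 19 without a filter, and 0 and 0 with only the 6 lesioned libraries (1962 genes at an unadjusted p under 0.05). DESeq2 called 298 and 365. Leaving out 1 library gave 0 to 225 and 0 to 452. The replicate block called 0 and 0 genes (2027 at an unadjusted p under 0.05). Same-numbered libraries correlated between −0.535 and 0.204 in their deviations from group means. The labels do not say what a replicate number marks, and these values cannot settle whether it pairs samples. The split coincides with the numbers within each time. Replicates 1 and 3 were low and replicate 2 high in per1b at 8 hpl, and the reverse held at 16 hpl. Whether the numbers mark a shared batch was not tested. Each state has 1 library at 1 of the times, so no spread exists there, and the 11714633 counts of 16 hpl replicate 3, the lowest total, limit low genes most.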
